A study of Homo sapiens with 5 samples.

Results

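The 10 Kruppel-like factor (KLF) genes, KLF2, KLF3, KLF4, KLF5, KLF6, KLF9, KLF10, KLF11, KLF13 and KLF15, were found by their symbols in a table of 18512 gene symbols. Each stood on a single row, and all 10 were covered by the authors' test. Polyadenylated RNA had been sequenced from BT474, an established luminal line of human breast cancer in which the HER2 gene is amplified. Persister cells (3 libraries) were the cells left after 9 days in 2 µM lapatinib, which blocks the kinases HER2 and EGFR, and medium and drug in 0.01% DMSO were renewed every 3 days. Parental cells (2 libraries) were grown at the same time in 0.01% DMSO without lapatinib, and all libraries, described by the submitters as biological replicates, came from this single line.

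Kruppel-like factors are transcription factors with a DNA-binding domain of zinc fingers at the C-terminus that recognises GC-rich and CACCC-type elements. The parts outside that domain differ and set the partner that is recruited. KLF2, KLF4, KLF5 and KLF6 are known to work with acetyltransferases such as p300, KLF3 recruits the corepressor CtBP, and KLF9, KLF10, KLF11 and KLF13 recruit the corepressor SIN3A. In epithelia KLF4 is best known for cell cycle exit and differentiation and KLF5 for proliferation.

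The authors' deposited table gives a single level of each gene per group in FPKM (fragments scaled to transcript length and to library size), together with a q-value, an adjusted p, for the difference. The values below are therefore group values without SD or n, and the depth of the libraries is unknown. A gene was called when its q-value was under 0.05. Each difference is that of persister minus parental cells in log2(FPKM + 1), a scale that understates the change of genes with low values. In bulk RNA, fewer cells carrying a transcript and less transcript per cell cannot be told apart. No group was treated briefly or released from the drug, so effects of the drug, of growth arrest and of survival cannot be told apart either.

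KLF2 transcripts fell steeply in persister cells, from 36.1 to 7.99 FPKM, while KLF10 rose from 15.5 to 30.9 FPKM, KLF13 from 10.4 to 17.2 FPKM and KLF4 from 12.7 to 19.1 FPKM. KLF9 rose by less, from 3.24 to 3.96 FPKM, and KLF3 fell from 14.2 to 10.7 FPKM. KLF5, KLF6, KLF11 and KLF15 did not pass the authors' test. Thus 6 of 10 members were called, 4 higher and 2 lower, beside 69.9% of the 13617 genes tested, of which 30.9% were higher and 39% lower. The share of called members was near that of all genes, so the count says nothing particular about the family. The median difference of the 10 members was 0.09, beside -0.04 for all tested genes.

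**Figure D1:**
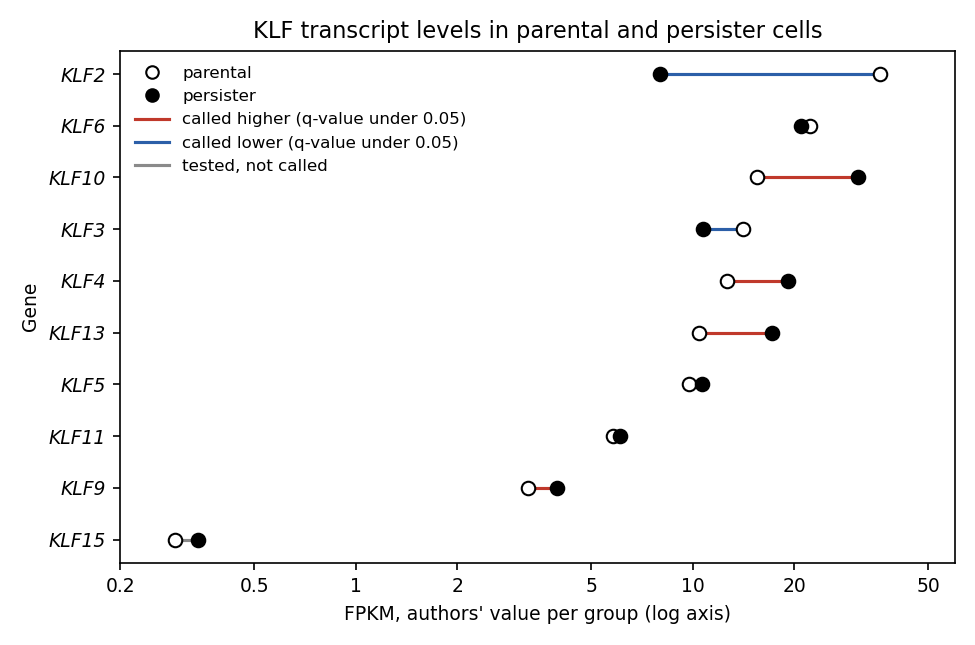
FPKM of each KLF gene in parental cells (open circles) and persister cells (filled circles), on a log axis; 1 deposited value per group, without error bars, and line colour gives the call by q-value. KLF2 moves from 36.1 to 7.99 FPKM, opposite to KLF10, KLF4 and KLF13.

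The order of levels within the family changed at its top. In parental cells KLF2 was the most abundant of the 10, followed by KLF6 (22.3 FPKM), KLF10, KLF3, KLF4, KLF13, KLF5 (9.76 FPKM), KLF11 (5.80 FPKM), KLF9 and KLF15 (0.290 FPKM). In persister cells KLF10 stood first, then KLF6 (21.0 FPKM), KLF4, KLF13, KLF3, KLF5 (10.7 FPKM), KLF2, KLF11 (6.10 FPKM), KLF9 and KLF15 (0.340 FPKM). KLF2 thus moved from rank 1 to rank 7 and KLF10 from rank 3 to rank 1. Without values per library, no spread can be set beside neighbouring ranks; KLF3 and KLF5 in persister cells, at 10.73 and 10.67 FPKM, are the closest pair in either group.

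The summed level of the 10 genes was 130.3 FPKM in the parental group and 128 FPKM in the persister group. KLF2 made up 27.7% of that sum in parental and 6.23% in persister cells. KLF10 made up 11.9% and 24.2%, KLF4 9.72% and 14.9%, and KLF13 8.02% and 13.4%. Without KLF2, the other 9 genes summed to 94.2 and 120.1 FPKM. The ratio of KLF2 to KLF4 went from 2.85 in parental to 0.417 in persister cells.

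**Figure D2:**
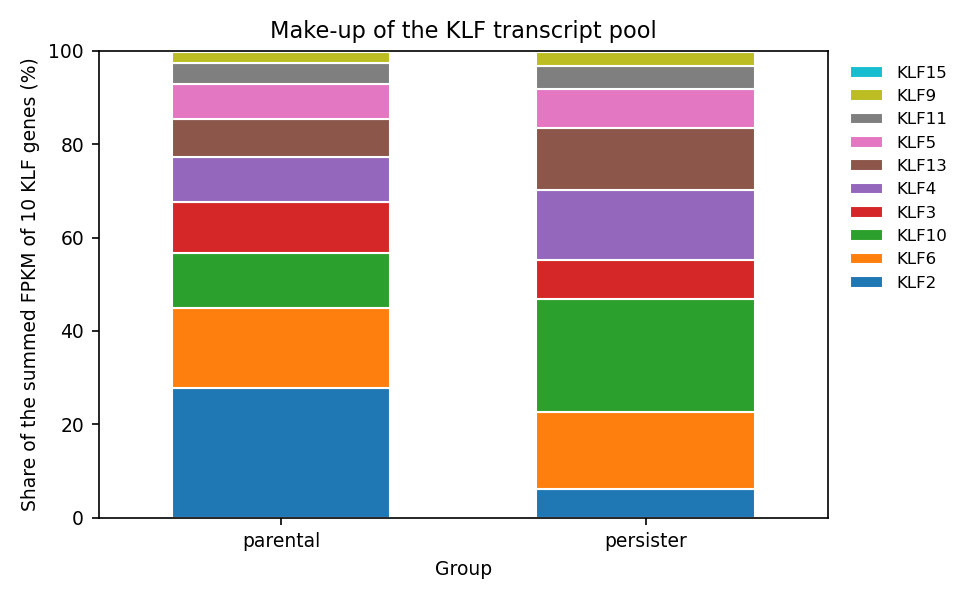
Share of each gene in the summed FPKM of the 10 KLF genes (vertical axis, percent) in parental and persister cells. The KLF2 segment at the base shrinks from 27.7% to 6.23%, and the KLF10 segment grows from 11.9% to 24.2%.

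Motif matches were also counted in the DNA upstream of the start sites. RefSeq windows (build GRCh38.p14, whereas the FPKM values were made on hg18) were found for 8 of the 10 members, all but KLF3 and KLF10, as 10 windows in all. The 250 bases before the start are printed for KLF2, which fell, and for KLF4 and KLF13, which rose. Capitals mark matches on either strand to GGGCGG (the GC box) and CACCC (the element after which the family's binding sites are named). They also mark CTA and TAG with any 4 bases between them, a loose form of the core of a MEF2 site. In KLF13 a GGGCGG match and the CACCC match overlap.
KLF2, chr19:16324576-16324825, plus strand: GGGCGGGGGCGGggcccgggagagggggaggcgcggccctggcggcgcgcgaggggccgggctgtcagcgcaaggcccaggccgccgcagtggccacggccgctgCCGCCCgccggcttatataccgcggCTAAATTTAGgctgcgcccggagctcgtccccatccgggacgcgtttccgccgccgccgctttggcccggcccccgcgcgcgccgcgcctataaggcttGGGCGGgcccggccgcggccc
KLF4, chr9:107489770-107490019, minus strand: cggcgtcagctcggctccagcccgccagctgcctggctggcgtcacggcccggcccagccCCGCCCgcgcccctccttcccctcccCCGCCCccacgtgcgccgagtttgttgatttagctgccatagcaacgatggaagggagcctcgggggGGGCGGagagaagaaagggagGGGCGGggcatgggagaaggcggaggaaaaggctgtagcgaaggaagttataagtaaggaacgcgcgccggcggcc
KLF13, chr15:31326585-31326834, plus strand: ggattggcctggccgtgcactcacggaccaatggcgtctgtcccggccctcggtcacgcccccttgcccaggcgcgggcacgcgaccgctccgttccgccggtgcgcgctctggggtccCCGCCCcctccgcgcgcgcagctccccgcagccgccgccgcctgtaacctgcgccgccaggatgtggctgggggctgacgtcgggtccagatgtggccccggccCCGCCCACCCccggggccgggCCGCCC

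GGGCGG was present in 8 of the 10 KLF windows, with up to 6 matches, and in 42.6% of all 35116 windows of the same length. KLF2 and KLF4 each held 4 matches and KLF13 held 3. CACCC was present in 4 of the 10 KLF windows and in 54.7% of all windows. The median GC content was 73.4% in the KLF windows and 58% in all windows, and the share with GGGCGG was not compared at matched GC content. KLF9, which was also called higher, had the lowest GC content of the KLF windows, 32.4%, and no match to GGGCGG or CACCC. A window of KLF5 also had a low GC content, 40.8%, and no match to GGGCGG. This loose MEF2 pattern was found in KLF2 as CTAAATTTAG, 120 to 111 bases before the start. It was also in 1 window of KLF11, as CTAGCGGTAG, and in 2.36% of all windows. The 4 middle bases of a MEF2 site are A or T, which holds for the KLF2 match and not for the KLF11 match. The share of all windows with only A or T there was not counted. TGTTTAC, a forkhead element, was in none of the 10 windows and in 2.98% of all. These are matches of letters, and binding was not measured.

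KLF2, a factor known for holding lymphocytes and endothelium in a quiescent state, was 4.52-fold lower in persister cells. The difference was -2.05 at a q-value of 0 in the authors' deposited table, and 1.31% of all tested genes lay below it. It was the sole member past a difference of 1, which 9% of tested genes passed with a call, 6.01% downward and 2.98% upward. In parental cells its level was above that of 86.1% of tested genes, and in persister cells above that of 55.2%. GENCODE 29 lists 4 pseudogenes named after KLF2, whose reads the authors' counting could share with it. The KLF2 transcript was the shortest of the 10, at 2018 bases, and KLF13 the longest, at 6825 bases. KLF3, which also fell, had 5122 bases. KLF4, KLF10 and KLF9, which rose, had 2813, 3378 and 5175 bases. Across 13355 tested genes the difference was larger in longer transcripts (Spearman's rho = 0.18, genes not being independent replicates), and its part in these results was not tested.

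Markers of endothelium, a tissue in which KLF2 is abundant, were low in both groups. Their summed level was 1.19 FPKM in the parental group and 0.144 FPKM in the persister group. Of the 6, 3 were tested and all 3 were called lower, beside 39% of all tested genes. These were VWF (0.487 and 0.0884 FPKM), CDH5 (0.592 and 0.0441 FPKM) and CLDN5 (0.0882 and 0.00610 FPKM). PECAM1, KDR and TEK were below 0.1 FPKM in both groups. The part of these transcripts in the fall of KLF2 was not tested. Among genes described as KLF2 targets, thrombomodulin (THBD) was higher in persister cells at 0.543 and 1.73 FPKM. The nitric oxide synthase gene NOS3 was also higher, at 0.120 and 0.775 FPKM, both at a q-value of 0 in the authors' deposited table. The lymphocyte egress receptor S1PR1 was listed at 0 in both groups and has no direction. These genes were low and were named after their values were seen, and their relation to KLF2 was not tested.

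KLF4, an activator and repressor that is one of the reprogramming factors, rose 1.51-fold (difference 0.56, q = 3.91e-12 in the authors' deposited table). Its difference exceeded that of 89.8% of tested genes. KLF5, which shares much of its binding preference with KLF4, was at 9.76 and 10.7 FPKM (q = 0.186). The ratio of KLF4 to KLF5 was 1.30 in parental and 1.79 in persister cells. A difference between their changes was not tested. GENCODE 29 lists 1 pseudogene named after KLF4.

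KLF6, a ubiquitous factor known as a candidate tumour suppressor, was at 22.3 and 21.0 FPKM (q = 0.303), the second most abundant member in both groups. Its difference of -0.08 became 0.04 when the groups were scaled to a median ratio of 1 and 0.27 when each was scaled to the same FPKM sum, so it has no settled direction.

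KLF3, which represses through CtBP, fell 1.32-fold (difference -0.37, q = 5.29e-07 in the authors' deposited table). With each group scaled to the same FPKM sum its difference shrank to -0.04. Exons of KLF3 overlap the antisense gene KLF3-AS1, and the libraries did not keep strand, so reads of the pair cannot be told apart. GENCODE 29 also lists 2 pseudogenes named after KLF3.

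Of the 4 members that recruit SIN3A, KLF10, KLF13 and KLF9 rose and KLF11 did not pass, beside 30.9% of all tested genes higher. KLF16, which also recruits SIN3A but is not among the 10, fell. KLF10, induced early by TGF-beta and a repressor of growth, rose 1.99-fold (difference 0.95, q-value of 0 in the authors' deposited table), more than 96.5% of tested genes. It stood just under a difference of 1 on the deposited scale and at 1.08 after scaling to the median ratio. KLF13, known from the control of the chemokine CCL5 in T cells, rose 1.64-fold (difference 0.67, q-value listed as 0), more than 92.6% of tested genes. KLF9, a glucocorticoid- and thyroid hormone-induced factor, rose 1.22-fold (difference 0.22, q = 0.00588). KLF11, the closest relative of KLF10, was at 5.80 and 6.10 FPKM (q = 0.562), and the antisense gene AC104794.4 overlaps its exons. The 4 genes summed to 35.0 FPKM in the parental group and 58.2 FPKM in the persister group. The 4 acetyltransferase-binding members summed to 80.9 and 58.8 FPKM with KLF2 and to 44.8 and 50.9 FPKM without it. This grouping by cofactor was not planned in advance, and the SIN3A sum leaves out KLF16 (11.2 and 6.82 FPKM). A shift between the groups of factors was not tested.

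KLF15, a regulator of amino acid and glucose metabolism in liver and muscle, was the lowest member in both groups, at 0.290 and 0.340 FPKM (q = 0.368). Its level exceeded that of 13.9% of tested genes in parental cells.

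Of the 8 other KLF genes, 7 had a row in the table and 3 were tested. KLF8, which like KLF3 binds CtBP, rose from 5.41 to 7.01 FPKM (q = 5.56e-04), and KLF12, another CtBP-binding factor, from 0.431 to 0.760 FPKM (q = 3.99e-11), both in the authors' deposited table. KLF16, a SIN3A-binding factor, fell from 11.2 to 6.82 FPKM (q = 6.94e-14). The CtBP- and the SIN3A-binding genes therefore each held members called in opposite directions once the whole family was counted. KLF7 was listed at 1.82 and 3.18 FPKM, but its fold was set to 1 and its q-value to 1, so it has no estimate. KLF1, the erythroid factor, KLF14 and KLF17 were below 0.1 FPKM in both groups, KLF14 being listed at 0, and KLF18 was not analysed here. Over the 17 KLF genes with a row, 13 were tested and 9 called (69.2%), 6 higher and 3 lower. Of all tested genes 69.9% were called, 30.9% higher and 39% lower, so the share called was near that of all genes.

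The SP factors, the closest relatives of the family, bind the same GC boxes. Of 9, 6 were tested and 2 called (33.3%) in the authors' deposited table, 0 higher and 2 lower, beside 69.9% of all tested genes called, 30.9% higher and 39% lower. With each group scaled to the same FPKM sum, 1 was higher and 1 lower. The median difference was -0.05. SP3 fell from 24.0 to 20.1 FPKM (q = 8.47e-04), which turned to a difference of 0.10 when each group was scaled to the same FPKM sum. SP6, an epithelial factor, fell from 1.30 to 0.561 FPKM, with a q-value listed as 0. SP2 (6.04 and 6.43 FPKM), SP4 (1.39 and 1.45 FPKM), SP5 (0.151 and 0.0939 FPKM) and SP9 (0.108 and 0.0819 FPKM) did not pass. SP1, the ubiquitous member, was listed at 14.5 and 16.7 FPKM without an estimate, and SP7 and SP8 were below 0.1 FPKM in both groups.

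**Figure D3:**
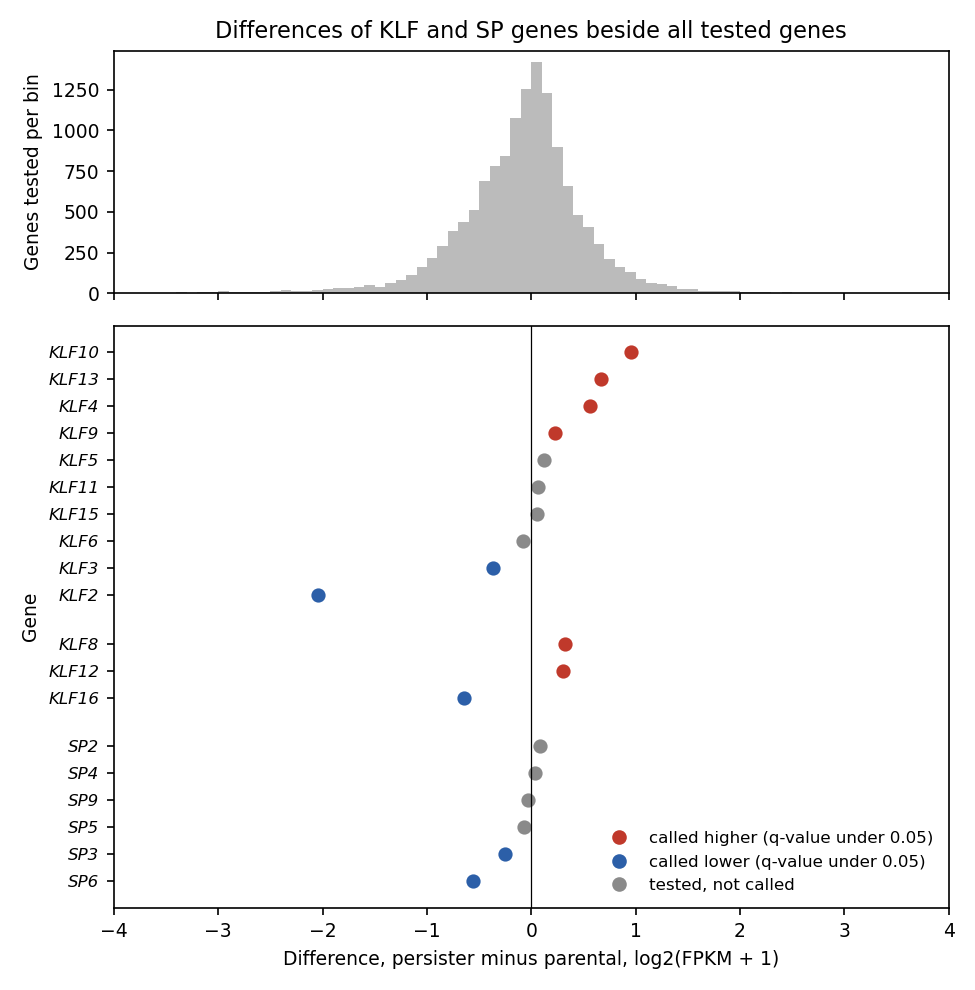
Upper panel: number of tested genes (vertical axis) per 0.1-wide bin of the difference, persister minus parental, log2(FPKM + 1), with values beyond 4 placed in the outermost bins. Lower panel: each tested KLF and SP gene on the same horizontal axis, coloured by call; KLF2 lies at -2.05, apart from all others, which lie between -0.64 and 0.95.

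Cofactors that KLF proteins recruit moved both ways. Of 10, 9 were tested and 5 called (55.6%), 3 higher and 2 lower, beside 69.9% of all tested genes called, 30.9% higher and 39% lower. Their median difference was -0.06. SIN3B, a paralog of SIN3A, rose from 6.40 to 16.1 FPKM and the acetyltransferase gene CREBBP from 6.55 to 12.1 FPKM, each at a q-value of 0 in the authors' deposited table. EP300, which encodes p300, rose from 13.0 to 15.5 FPKM (q = 6.33e-04). The deacetylase genes HDAC2 and HDAC1 fell, HDAC2 from 27.0 to 15.1 FPKM (q-value listed as 0) and HDAC1 from 46.9 to 39.7 FPKM (q = 0.00200), and HDAC1 turned to a difference of 0.12 under scaling to the same FPKM sum. HDAC3 (25.7 and 23.4 FPKM), the CtBP genes CTBP1 (41.6 and 38.1 FPKM) and CTBP2 (19.0 and 21.2 FPKM) and the acetyltransferase gene KAT2B (0.756 and 0.680 FPKM) did not pass. SIN3A, at 11.8 and 12.5 FPKM, had no estimate.

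Genes for the turnover and partners of KLF proteins were called about as often as all genes. Of 9, 8 were tested and 5 called (62.5%), 4 higher and 1 lower, beside 69.9% of all tested genes called, 30.9% higher and 39% lower. Their median difference was 0.14, and with a q-value under 0.01 the count higher was 2. FBXO32, a ubiquitin ligase subunit described for KLF4, rose from 2.32 to 13.7 FPKM, and WWTR1, which encodes the coactivator TAZ that protects KLF5, from 3.02 to 7.15 FPKM, each at a q-value of 0 in the authors' deposited table. FBXW7, the ubiquitin ligase subunit that recognises KLF5 and KLF2, fell from 6.40 to 4.69 FPKM (q = 8.38e-04). SMURF1, a ligase for KLF2, rose from 6.65 to 7.71 FPKM (q = 0.0470), and VHL, a ligase subunit described for KLF4, from 20.1 to 22.8 FPKM (q = 0.0219). The ligase genes WWP1 (15.7 and 14.7 FPKM), ITCH (60.8 and 65.4 FPKM) and SIAH1 (23.4 and 23.9 FPKM) did not pass. YAP1, a relative of TAZ, at 46.5 and 52.3 FPKM, had no estimate.

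The ERK5 and MEF2 pathway, which induces KLF2 and KLF4 in endothelium, had 4 of its 6 tested genes called (66.7%), 4 higher and 0 lower, beside 69.9% of all tested genes called, 30.9% higher and 39% lower. The share called was near that of all genes, and the median difference was 0.42. The kinase gene MAP3K3 rose from 4.04 to 8.86 FPKM (q-value of 0 in the authors' deposited table) and MAP2K5, the kinase of ERK5, from 5.11 to 6.76 FPKM (q = 0.00114). MEF2D rose from 9.49 to 13.7 FPKM (q = 5.53e-08) and MEF2A from 3.93 to 5.91 FPKM (q = 2.27e-07). ERK5 itself, encoded by MAPK7, was at 3.53 and 3.41 FPKM (q = 0.757), and MAP3K2 was at 4.39 and 4.89 FPKM (q = 0.0782). MEF2C was below 0.1 FPKM in both groups, and MEF2B was not analysed here.

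The glucocorticoid receptor gene NR3C1, an inducer of KLF9, rose from 2.89 to 9.02 FPKM, at a q-value of 0 in the authors' deposited table. Genes the receptor induces went both ways, and of the 6 tested genes in the list of 7, 5 were called (83.3%), 3 higher and 2 lower, beside 69.9% of all tested genes called, 30.9% higher and 39% lower. The median difference was 0.06. PER1 rose from 0.927 to 3.19 FPKM (q-value listed as 0) and DUSP1 from 15.9 to 19.5 FPKM (q = 0.00122). SGK1 fell from 2.32 to 1.44 FPKM (q = 3.94e-07) and FKBP5 from 0.232 to 0.105 FPKM (q = 4.48e-04). TSC22D3 was at 36.0 and 31.8 FPKM (q = 0.0813), and ZBTB16 was below 0.1 FPKM in both groups.

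Genes described elsewhere as KLF targets were called about as often as all genes. Of 21, 18 were tested and 12 called (66.7%) in the authors' deposited table, 6 higher and 6 lower, beside 69.9% of all tested genes called, 30.9% higher and 39% lower. Their median difference was 0.02. Cyclin D1 (CCND1), induced by KLF5 and repressed by KLF4, fell from 110 to 50.4 FPKM, and PDGFA, induced by KLF5, rose from 5.22 to 13.7 FPKM. Among genes of amino acid breakdown under KLF15, PRODH fell from 51.6 to 18.2 FPKM and BCAT2 from 52.8 to 36.3 FPKM (q = 2.47e-09). GPT, of the same group, rose from 1.02 to 2.72 FPKM. CCND1, PDGFA, PRODH and GPT had a q-value listed as 0. CDKN1A, the CDK inhibitor that KLF4 and KLF6 induce, was at 21.3 and 21.9 FPKM (q = 0.725). SMAD7, which KLF10 and KLF11 repress, rose from 8.11 to 12.5 FPKM (q = 2.99e-07), and CCL5 was at 0.0713 and 0.0892 FPKM (q = 0.647). CDH1 (143 and 90.0 FPKM), KRT4 (5.79 and 3.31 FPKM) and KRT19 (841 and 623 FPKM) were also called lower. LGALS3 (91.5 and 106 FPKM) was also called higher, as were THBD and NOS3, given above. The targets and the factors were measured once in the same libraries, so these values show levels side by side and no regulation.

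**Figure D4:**
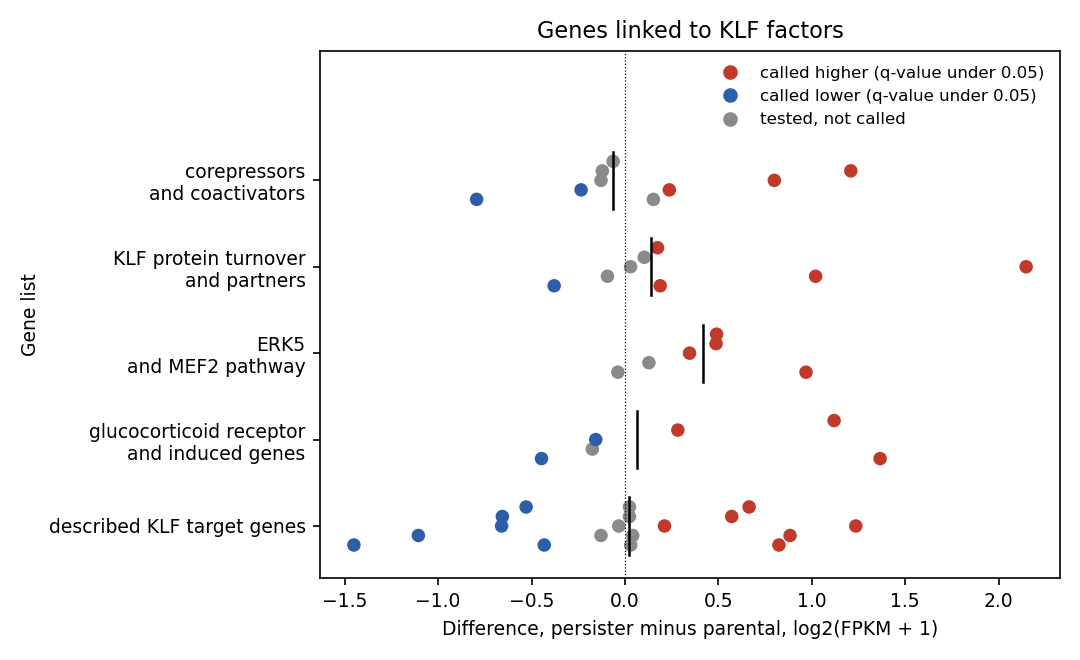
Difference of each tested gene, persister minus parental on the log2(FPKM + 1) scale (horizontal axis), in 5 lists of genes linked to KLF factors (rows); points are coloured by call and the black bar is the list's median, with vertical offsets for legibility alone. The ERK5 and MEF2 list, with 6 tested genes, has no gene called lower and a median of 0.42. The target list, with 18 tested genes, has 6 called in each direction. Of all tested genes 30.9% were called higher and 39% lower.

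Luminal epithelial markers were abundant apart from ERBB2. Of the 9, 8 were tested and 8 called, 2 higher and 6 lower, beside 69.9% of all tested genes called, 30.9% higher and 39% lower. KRT19 was at 841 and 623 FPKM, EPCAM at 144 and 89.6 FPKM and FOXA1 at 107 and 92.5 FPKM, all called lower. GATA3, at 14.1 and 43.3 FPKM, and ESR1, at 12.4 and 18.2 FPKM, were called higher, and ERBB2, amplified in this line, was listed at 0 in both groups and cannot be read. Of 6 fibroblast and 6 immune markers, 5 and 3 were below 0.1 FPKM in both groups. The exceptions were COL1A1 (13.4 and 8.73 FPKM, called lower), LYZ (4.61 and 4.06 FPKM), CD68 (2.30 and 1.97 FPKM) and CD14 (0.143 and 0.00344 FPKM), of which the last 3 did not pass. Over all symbols the FPKM sum was 332885 in parental and 259812 in persister cells. Genes with at least 1 FPKM in both groups had a median difference of -0.11. Relative to the median ratio of those genes, the members' differences ran from -1.93 (KLF2) to 1.08 (KLF10) with a median of 0.21.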

How the data were processed

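Cuffdiff 2.0.2, Cufflinks, TopHat2 2.0.6, CASAVA 1.8 and the build hg18 are listed, per the submitters' processing notes, without settings. The libraries did not keep strand, per the labels' protocols. The authors give 1 FPKM value per gene and group, per the file headers, and do not state the scaling between libraries. The authors also deposited a q-value of unstated adjustment. It is listed as 0 in 2712 rows, the smallest value above 0 being 1.2e-15. No counts or values per library were used, so depth, replicate spread and counting error are unknown, and p-values measure only what the authors' test took as spread.

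Genes with a q-value below 1 were taken as tested. Rows with a fold and a q-value of 1 but unequal FPKM (beyond 0.6%), 145 in number, have no estimate. The table has 18803 rows and 18512 symbols; 25 of 26 spreadsheet dates were renamed through their RefSeq identifiers, and 269 symbols stood on several rows, of which the row of highest mean level was kept. Calls, differences with a pseudocount of 1 and ranks were computed over all tested genes with Python 3.11.15 and pandas 2.3.3, and the code was tested on simulated data. Overlaps, pseudogenes and transcript lengths come from GENCODE 29, and upstream sequences from RefSeq. Neither build matches hg18, and they were used for names, lengths and the sequences printed.

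Members and lists were chosen with earlier results of these data known. Named were all KLF and SP genes and, per list, up to 4 called genes with the largest difference. Chosen after their values were seen were HDAC1, VHL, FKBP5, THBD, NOS3, S1PR1, CDKN1A, SMAD7, CCL5, BCAT2, CDH1, KRT4, KRT19, LGALS3 and the markers. The same holds for genes named as not called, without an estimate or below 0.1 FPKM. No set test was made. Alternatives were a pseudocount of 0.1, a minimum of 1 FPKM, a q-value under 0.01, a difference of at least 1, 2 scalings and summed rows.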

Additional observations from a re-analysis of the deposited data

How the results depend on the processing

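No paired analysis was possible because the deposited table holds 1 value per group, and for the same reason no replicate could be left out. The counts of members called (4 higher, 2 lower) stayed within 1.5 times under 6 of 7 alternatives. With a difference of at least 1 required, a stricter rule by construction, 2.98% of all tested genes were called higher and 6.01% lower. Under it 0 of the 10 members were higher and 1 lower. In the other lists 6 genes were higher and 2 lower, all among the 47 tested in the 5 lists linked to KLF factors. A gene's q-value is the authors' and does not change with scaling, so scaling moves directions alone. For the same reason the pseudocount could not alter a call. Each member stood on a single row and all called members were above 1 FPKM, so summed rows and the minimum could not alter their counts. The agreement of the counts under these alternatives was thus fixed in advance. With each group scaled to the same FPKM sum, the median difference of genes at 1 FPKM or more in both groups moved from -0.11 to 0.22, and the share of called genes that were higher went from 44.2% to 54.8%.

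Signs that turned were all from lower to higher. With the median ratio set to 1, KLF6 came to 0.0413, CTBP1 to 0.00478, WWP1 to 0.0276, MAPK7 to 0.0628 and ATF3 to 0.0610. With equal FPKM sums, KLF6 came to 0.27, SP3 to 0.10, HDAC1 to 0.12, HDAC3 to 0.22, CTBP1 to 0.23, KAT2B to 0.15, WWP1 to 0.25, MAPK7 to 0.28, TSC22D3 to 0.18, SMAD2 to 0.21, ATF3 to 0.28, FOXA1 to 0.14, LYZ to 0.16 and CD68 to 0.11. Of these, SP3, HDAC1 and FOXA1 were called lower as deposited. Of 69 values of the members under the alternatives, 62 kept direction and call, 5 no longer passed and 2, both of KLF6, changed sign. As given above, several of these alternatives could not alter the call of a called member. The 5 were KLF3, KLF4, KLF9, KLF10 and KLF13 under the size rule. SMURF1 and VHL did not pass at a q-value under 0.01. KLF15 was too low to be kept with a minimum of 1 FPKM.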
